A study of Mus musculus with 9 samples.

Results

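Solute carrier (Slc) genes were followed in iCLIP data of the mRNA export protein Chtop. The set held the 201 genes, of 22442 in the count tables, whose symbol begins with Slc, a family number, the letter a and a member number; 1 further match was not analysed here. It spanned 46 families, and 158 genes took their symbol from the deposited length table and 43 only from a deposited table restricted to genes counted with the isoforms. The symbol pattern also took in 3 genes that code for no carrier, namely Slc9a3r1 (the scaffold NHERF1), Slc4a1ap (kanadaptin) and the pseudogene Slc10a4-ps. Slc proteins move ions, metals, amino acids, sugars, vitamins and mitochondrial metabolites across membranes, either along a gradient or coupled to the flow of another ion. In neuron-like cells they load transmitters into vesicles, set intracellular chloride and calcium, and feed the lysosome and the mitochondrion with nutrients. Chtop belongs to the nuclear machinery that couples mRNA processing to export, and in iCLIP the RNA crosslinked to a protein is recovered and sequenced.

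All 9 libraries came from N2a Flp-In rtTA cells, a mouse neuroblastoma line, exposed to 2 µg/mL doxycycline for 24 hours, and crosslinked at 254 nm with 0.15 J/cm2. The lines carried an inducible FLAG-tagged Chtop cDNA, so the protein recovered was a transgene product. Anti-FLAG immunoprecipitates gave 3 libraries of Chtop with exon 5 and 3 of Chtop without exon 5, from replicates made on separate days. The 3 size-matched inputs took 2% of lysate without the antibody step, and came from the line without exon 5 (replicate 1), the line with exon 5 (replicate 2) and a FLAG-GFP line (replicate 3). Line and replicate can therefore not be told apart among the inputs, and both isoform comparisons share them.

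The immunoprecipitates held 783868, 851442 and 1328423 counts with exon 5 and 624062, 1005472 and 1844970 without it, against 111982, 173342 and 75504 in the inputs. The inputs were thin, and 3 counts were worth 16.3 to 21.1 CPM (count per library size, after edgeR's TMM scaling) there, against 2.10 to 5.51 CPM in the immunoprecipitates. They also differed more among themselves, with correlations of log CPM of 0.267 to 0.35, against 0.661 to 0.676 among libraries with exon 5 and 0.714 to 0.794 among those without. Input replicate 2 detected 94 Slc genes, against 60 and 38 in input replicates 1 and 3. Cell type markers could be looked up only where they had a symbol, and some symbols came only from a table of genes counted with the isoforms. Of 14 neuroblastoma and neuron markers listed, 10 had a symbol, and all 10 were counted. Of 18 markers of other cell types 9 had a symbol, and 5 of the 9 (Dcn, Krt18, Col3a1, Alb and Col1a2) were at 0 in every library. The other 4 were counted, and the list summed to 11.4 to 17.8 CPM with exon 5 and 9.80 to 43.5 without, against 0 to 77.5 in the inputs. Mbp, a myelin gene, had 0, 8 and 18 counts with exon 5 and 9, 19 and 8 without, against 0 in the inputs (edgeR adjusted p = 0.245 and 0.192), and its part in the results was not tested. Reads from the amplified libraries need not be separate molecules, so the floors and intervals given here cover counting error only, and bulk lysates do not tell fewer cells with an RNA apart from less RNA per cell.

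Slc RNAs took a similar small share of every library, between 1.01% and 1.46% of counts. The share was 1.24%, 1.15% and 1.07% in the libraries with exon 5 and 1.31%, 1.25% and 1.22% in those without, against 1.02%, 1.46% and 1.01% in the inputs. The isoform libraries lay inside the range of the inputs. Of the 201 genes, 140 had a count in some library and 94 were counted in all 6 immunoprecipitates. Of the 140, 34 were counted in immunoprecipitates only and 3 in inputs only. The 3 were the folate transporter Slc46a1 with 30 counts in input replicate 3, Slc5a12 with 8 in input replicate 2, and the vesicular zinc transporter Slc30a8 with 1. The inputs were far thinner, and 43 symbols came only from a table of genes counted with the isoforms. These numbers therefore cannot be read as a trait of Slc genes, and the share over all genes was not computed. Counts were concentrated, and the 10 genes with the most held 38.4% of all Slc counts in the immunoprecipitates. Filters on low counts left 105 Slc genes for testing, which are not all members.

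Slc18a2, the vesicular monoamine transporter VMAT2 (chromosome 19, 59260878 to 59296012, GRCm38.p6), gave more counts than any other Slc gene in the immunoprecipitates, 10.2% of Slc counts there. It reached 767, 1291 and 1437 CPM with exon 5 and 1404, 1332 and 2110 CPM without, against 126, 899 and 84.5 CPM in the inputs. Every library without exon 5 lay above every input, whereas the lowest library with exon 5 lay below input replicate 2. Its log2 fold change over input was 1.65 (SE 0.72) with exon 5 and 2.12 (SE 0.73) without, which missed the threshold of 0.05 (edgeR adjusted p = 0.145 and 0.0774). Without input replicate 2 the same test passed, with log2 fold changes of 3.52 and 4.01 (edgeR adjusted p = 0.00246 and 0.00151). That omission also raised the median of all genes from 1.03 in both comparisons to 2.68 and 2.69. Calls over all genes went from 765 and 726 to 2411 and 2354. Slc18a2 passed in 2 of 18 alternatives with exon 5 and 3 of 18 without. Its neighbours in the vesicular class were nearly silent. The vesicular glutamate transporters Slc17a6 and Slc17a7 were at 0 in all 9 libraries, and the vesicular GABA transporter Slc32a1 had 2.86, 1.43 and 6.55 CPM with exon 5 and 11.0, 37.6 and 41.3 CPM without, against 0 in all 3 inputs. That gene was too thinly counted to be tested.

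**Figure D1:**
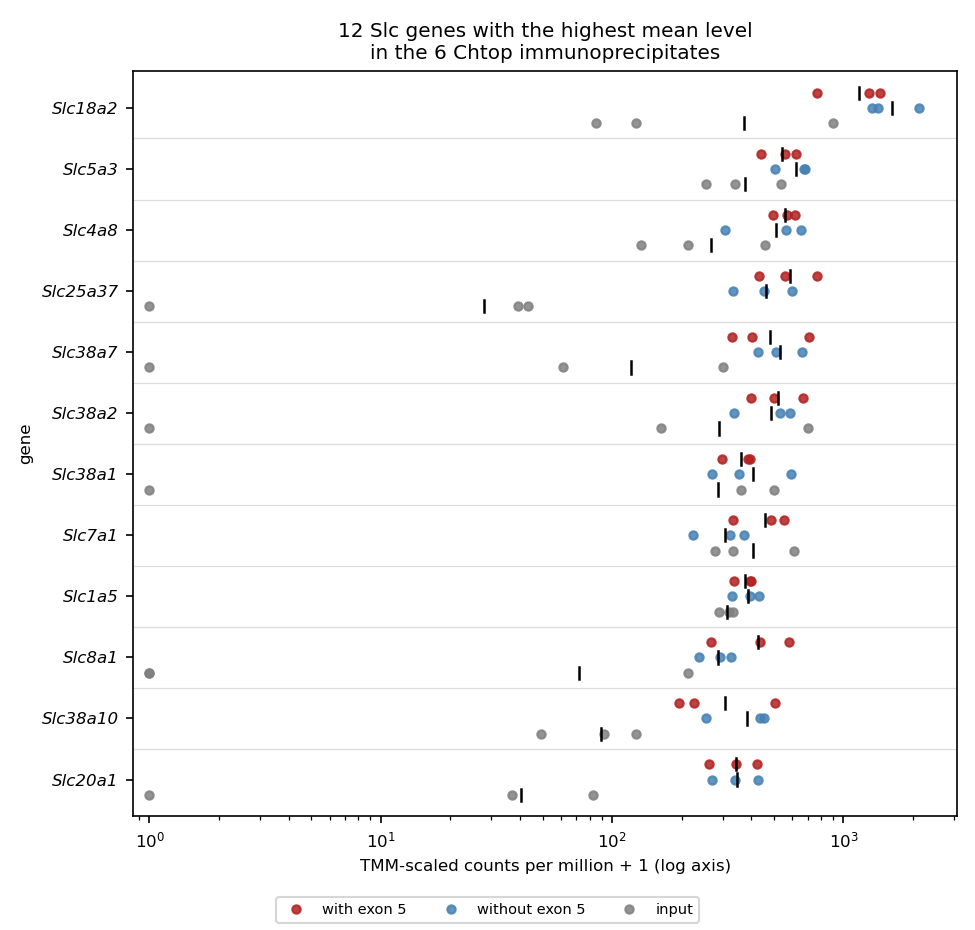
TMM-scaled CPM plus 1 (log axis) of the 12 Slc genes with the highest mean in the 6 immunoprecipitates, 1 point per library (3 per group) and a black bar at the group mean. Slc25a37 and Slc20a1 show input points far below all isoform points, while Slc7a1 and Slc1a5 show inputs among or close to them.

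Levels of different genes were set side by side per kilobase of annotated CDS and UTR. Slc18a2 led on that scale too, with 308 ± 93.1 CPM per kb with exon 5 and 427 ± 114 without, against 97.7 ± 121 in the inputs (SD, n = 3 each). The lysosomal glutamine and asparagine exporter Slc38a7 followed with 144 ± 60.4 and 160 ± 35.9, against 36.0 ± 47.6 CPM per kb in the inputs. The glutamine carrier Slc1a5 (ASCT2) had 135 ± 12.3 and 139 ± 18.9, against 113 ± 7.86 CPM per kb in the inputs. Slc38a7 and Slc1a5 did not differ beyond their spread in the immunoprecipitates. Slc25a3, Slc25a28, Slc8a1, Slc25a37, Slc38a2, Slc20a1 and Slc39a7 filled ranks 4 to 10, in that order, with means over 6 libraries of 99.0 to 123 CPM per kb, and each overlapped its neighbour in the order.

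The question asked of each isoform was which RNAs it recovered beyond their level in the input. Among Slc genes, 3 were higher with exon 5 and 3 without, where 8.31% and 8.12% of all genes were. In each comparison 2 of the 3 were mitochondrial carriers, of 20 tested, which is close to the share of all genes. The iron importer Slc25a37 (mitoferrin-1; chromosome 14, 69241848 to 69285544) had the most counts among them. Slc25a37 had 558, 771 and 429 CPM with exon 5 and 331, 452 and 596 CPM without, against 0, 38.1 and 42.3 CPM in the inputs. The lowest isoform library lay far above the highest input, and the 2 isoforms overlapped. Its log2 fold change over input was 4.45 (SE 0.96, edgeR adjusted p = 0.0162) with exon 5 and 4.10 (SE 0.95, edgeR adjusted p = 0.0216) without.

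The other calls were of genes with no count in any input, so only a lower bound can be given, against 3 counts in each input library. Such genes passed the filter on low counts only through the immunoprecipitates, where they were high, so their adjusted p is no independent support. The sugar-phosphate antiporter Slc37a1 (chromosome 17, 31295135 to 31350709) had 131, 42.8 and 59.9 CPM with exon 5 and 25.7, 54.1 and 85.4 CPM without, against 0 in the inputs. It was at least 4.22-fold higher with exon 5 and at least 2.98-fold higher without (edgeR adjusted p = 0.0319 and 0.0396). The mitochondrial ATP-Mg/phosphate carrier Slc25a25 had 18.6, 59.9 and 68.3 CPM with exon 5 and 44.1, 41.2 and 21.0 CPM without, against 0 in the inputs. With exon 5 it was at least 2.65-fold higher (edgeR adjusted p = 0.0467). Slc25a26, which carries S-adenosylmethionine into mitochondria, had 52.8, 15.7 and 21.5 CPM with exon 5 and 130, 38.8 and 34.3 CPM without, against 0 in the inputs. It was at least 3.67-fold higher without exon 5 (edgeR adjusted p = 0.0410). Passing in 1 isoform and not in the other does not show a difference between them, and neither gene passed between the isoforms (edgeR adjusted p = 1.00 for each).

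In all, 3 of 105 Slc genes were higher in each comparison (2.86%), against 8.31% and 8.12% of all 8342 tested genes. Among genes with a symbol, as all Slc genes have, 10.1% and 9.9% were higher. Of the 62 tested Slc genes with a name in the length table, 1 and 2 were higher, against 7.59% and 7.77% of genes named there. No Slc gene was lower by edgeR's test in either comparison, against 0.863% and 0.587% of all genes. Other settings of the same test gave lower calls, namely 1 with exon 5 by library size alone, 2 in each comparison with no filter on low counts, and 1 in each without input replicate 1. At an unadjusted p under 0.05, 20 Slc genes were higher and 3 lower with exon 5, and 20 were higher and 2 lower without, against 25.4% and 3.75%, and 25.2% and 3.36%, of all genes. DESeq2 called 13 Slc genes with exon 5, 10 higher and 3 lower, and 14 without, 12 higher and 2 lower, where it called 1708 and 1654 of all genes. All libraries with exon 5 lay above all inputs for 31 Slc genes (29.5%, against 33.1% of all genes), and all libraries without exon 5 did so for 30 (28.6%, against 35.9%). The isoform libraries lay below all inputs for 2 Slc genes in each comparison, against 3.4% and 3.43% of all genes. The median log2 fold change of the tested Slc genes was 0.83 with exon 5 and 0.99 without, beside 1.03 and 1.03 for all genes. Genes with a symbol had medians of 1.28 and 1.28. With genes at 0 in the inputs set to their bound the Slc medians were 0.56 and 0.73. Among genes named by the length table the medians were 0.70 and 0.74 for Slc genes, beside 0.972 and 0.975 for all named there.

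The calls changed with the libraries used, over all genes as well as Slc genes, while the log2 fold change of Slc25a37 stayed between 3.68 and 4.90 with exon 5 and between 3.30 and 4.56 without, over the alternatives run for it. Leaving out any 1 library with exon 5 left 0 calls with exon 5 (137, 58 and 87 over all genes, against 765 with all libraries), and the edgeR adjusted p of Slc25a37 was then 0.0537 to 0.0715. Leaving out a library without exon 5 left 1, and leaving out input replicate 1, 2 or 3 gave 6, 30 and 6 (1084, 2411 and 1126 over all genes). For Chtop without exon 5, leaving out 1 of its own libraries left 0, leaving out replicate 1, 2 or 3 with exon 5 left 0, 0 and 1, and leaving out input replicate 1, 2 or 3 gave 8, 35 and 6 (1096, 2354 and 1107 over all genes, against 726 with all libraries). With the replicate number as a block, 1 Slc gene was called with exon 5 and 2 without.

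By transport class, the mitochondrial carriers had the highest medians among classes with over 5 tested genes. Their median log2 fold change over input was 1.34 with exon 5 and 1.95 without, over 20 of 30 members tested. They took 0.144% ± 0.0235 of counts with exon 5 and 0.175% ± 0.0149 without, against 0.0912% ± 0.0331 in the inputs (SD, n = 3 each). Ion and acid-base carriers had medians of 1.27 and 1.04 over 20 of 34 members, with none called. Slc4a8, a sodium-driven chloride-bicarbonate exchanger, belongs here, with 497, 614 and 571 CPM with exon 5 and 307, 651 and 566 CPM without, against 132, 212 and 458 CPM in the inputs. So does Slc8a1, the plasma membrane sodium-calcium exchanger NCX1, with 436, 581 and 266 CPM with exon 5 and 325, 293 and 236 CPM without, against 0, 212 and 0 CPM in the inputs. For Slc8a1 every isoform library lay above every input, with log2 fold changes of 2.57 and 1.98 that did not pass (edgeR adjusted p = 0.191 and 0.313).

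Among classes with over 5 tested genes, the amino acid carriers had the medians closest to 0, of 0.17 and 0.18 over 19 of 38 members and none called. They took 0.297% ± 0.0649 of counts with exon 5 and 0.310% ± 0.0620 without, against 0.381% ± 0.0724 in the inputs. Classes were assigned by family number. This one therefore also held the monoamine transporters Slc6a2, Slc6a3 and Slc6a4, which were not tested, and the creatine transporter Slc6a8, which was. Slc1a5 had 396, 392 and 335 CPM with exon 5 and 432, 394 and 329 CPM without, against 318, 289 and 331 CPM in the inputs. Its log2 fold changes were 0.26 (SE 0.62) and 0.30 (SE 0.62). The arginine and lysine carrier Slc7a1 (CAT-1) had 553, 485 and 332 CPM with exon 5 and 371, 323 and 223 CPM without, against 276, 610 and 331 CPM in the inputs. The groups overlapped, and the log2 fold changes were 0.17 and -0.41 (edgeR adjusted p = 0.893 and 0.730). The sodium-coupled neutral amino acid carriers Slc38a2 and Slc38a1 overlapped their inputs as well, with log2 fold changes of 0.85 and 0.74, and 0.32 and 0.49.

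Metal carriers had medians of 0.77 and 0.72 over 13 of 25 members with none called, and the vitamin, nucleoside and organic ion group had 0.94 and 0.95 over 14 of 30 with none called. Sugar, lactate and fatty acid carriers had medians of 0.26 and 0.94 over 13 of 31, with Slc37a1 called in both. The nucleotide sugar and acetyl-CoA group had medians of 0.070 and 1.98 over 3 tested genes, with none called, and the vesicular class had Slc18a2 as its 1 tested gene. The myo-inositol carrier Slc5a3 had the most counts of the sugar, lactate and fatty acid class, 438, 624 and 556 CPM with exon 5 and 505, 681 and 676 CPM without, against 252, 534 and 338 CPM in the inputs. Its log2 fold changes of 0.52 and 0.73 did not pass and were -0.22 and -0.032 when libraries were scaled by size alone. Slc5a3 overlaps Mrps6, and as no source says whether counting used the strand, reads of the 2 genes may be mixed.

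**Figure D2:**
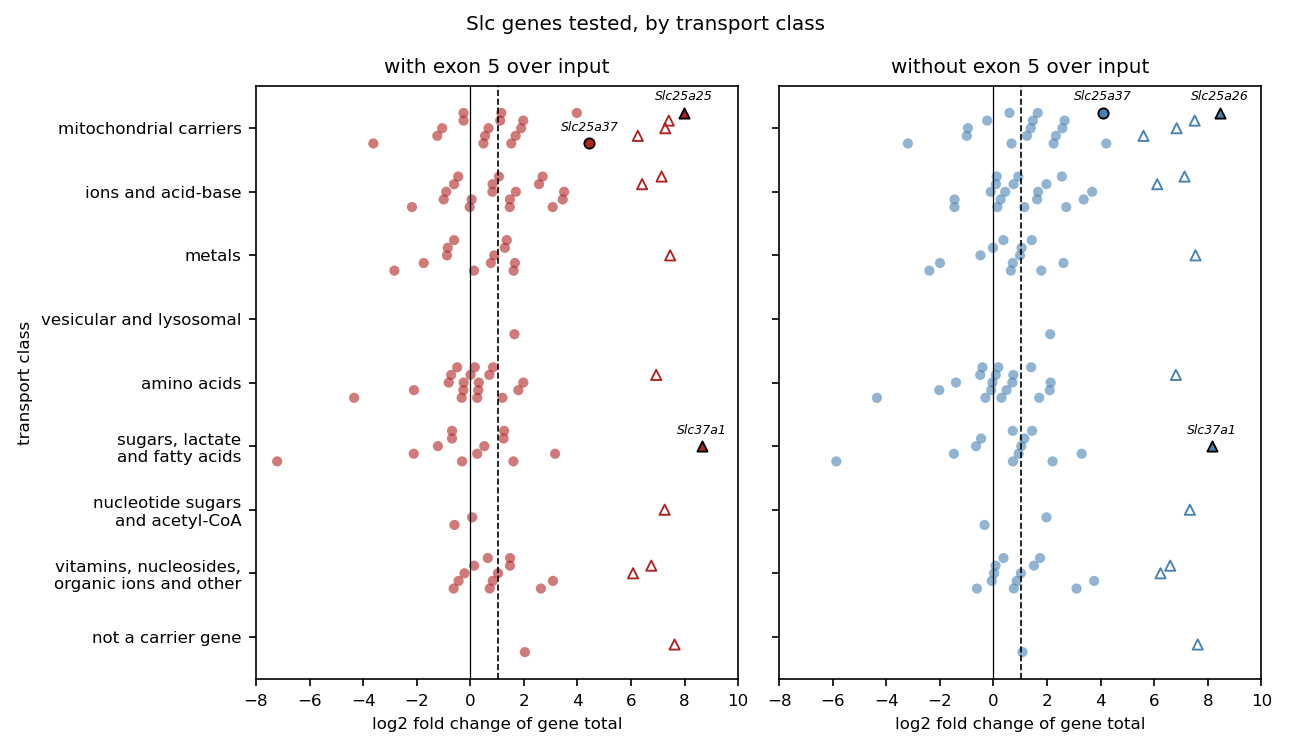
Log2 fold change over input of each tested Slc gene (1 point per gene) by transport class, with exon 5 on the left and without exon 5 on the right; triangles are genes with 0 counts in all inputs, whose position is no bound, black outlines mark genes past an adjusted p of 0.05, and the dashed line is the median of all genes (1.03). Amino acid carriers centre near 0 and mitochondrial carriers farther right, with medians of 0.17 and 1.34 with exon 5.

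Gene parts were tested with the 6 isoform libraries together against the 3 inputs, with the library sizes of the gene totals, so their counts of calls cannot be set against those of the totals per isoform. In the CDS, 13 of 86 Slc genes tested were higher (15.1%, against 20.7% of 6436 genes) and none was lower by edgeR, against 1.4% of all genes. At an unadjusted p under 0.05, 23 were higher and 0 lower, against 36.5% and 2.94% of all genes, and DESeq2 called 17 higher and 1 lower (1944 genes in all). With no filter on low counts edgeR called 12 higher and 3 lower. The median log2 fold change was 1.15 for Slc genes, beside 1.72 for all and 1.885 for genes with a symbol. Of the 13, 9 had no CDS count in any input and so passed the filter only through the immunoprecipitates.

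Slc20a1, the sodium-phosphate cotransporter PiT-1 (chromosome 2, 129198773 to 129211615), had 240, 170 and 157 CPM in its CDS with exon 5 and 142, 254 and 263 CPM without, against 0 in the inputs. It was at least 11.0-fold higher (edgeR adjusted p = 0.00811), and all of its input counts lay in the 5′ UTR. As a gene total it missed the threshold, with log2 fold changes of 3.09 and 3.10 (edgeR adjusted p = 0.0656 and 0.0662). Both mitochondrial iron importers passed. The CDS of Slc25a28 (mitoferrin-2; chromosome 19, 43663801 to 43675006) had 70.0, 141 and 101 CPM with exon 5 and 118, 120 and 129 CPM without, against 0 in the inputs, at least 6.12-fold higher (edgeR adjusted p = 0.0115). Its 19 input counts all came from input replicate 2 and lay in the 3′ UTR. The CDS of Slc25a37 had 24.3, 123 and 80.5 CPM with exon 5 and 95.6, 94.1 and 135 CPM without, against 0 in the inputs, at least 4.97-fold higher (edgeR adjusted p = 0.0163). For these 3 genes the call held under all 17 alternative settings and omissions of a library.

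Ion carriers were among the CDS calls. The potassium-chloride cotransporter Slc12a4 (KCC1) had 98.5, 141 and 221 CPM with exon 5 and 108, 214 and 250 CPM without, against 18.0, 27.2 and 0 CPM in the inputs, a log2 fold change of 3.45 (SE 1.07, edgeR adjusted p = 0.0369). Slc8a3 (NCX3) and Slc24a2 (NCKX2), which extrude calcium in exchange for sodium, were higher as well. Slc8a3 had 27.1, 97.0 and 70.2 CPM with exon 5 and 47.8, 55.3 and 44.1 CPM without, against 0 in the inputs, at least 3.08-fold higher (edgeR adjusted p = 0.0214). Slc24a2 had 129, 78.5 and 70.2 CPM with exon 5 and 31.2, 42.3 and 57.4 CPM without, against 0, 5.45 and 0 CPM in the inputs, where 1 count gave a ratio of 33.0 with an interval of 5.88 to 1307 (edgeR adjusted p = 0.0281).

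Carriers of other classes completed the CDS calls. The CDS of the mitochondrial zinc transporter Slc30a9 had 62.8, 35.7 and 12.2 CPM with exon 5 and 91.9, 96.4 and 87.4 CPM without, against 0 in the inputs, at least 3.48-fold higher (edgeR adjusted p = 0.0216). Slc5a3 rose in its CDS by 3.17 (log2, SE 0.96, edgeR adjusted p = 0.0338), with 350, 452 and 421 CPM with exon 5 and 311, 456 and 504 CPM without, against 0, 54.5 and 84.5 CPM in the inputs. The vitamin C transporter Slc23a2 was at least 2.60-fold higher (edgeR adjusted p = 0.0327) and the Golgi UDP-galactose transporter Slc35a2 at least 1.36-fold (edgeR adjusted p = 0.0475). Slc45a4 was at least 2.45-fold higher and the non-carrier Slc4a1ap at least 2.04-fold (edgeR adjusted p = 0.0370 and 0.0480). Leaving out replicate 1, 2 or 3 with exon 5 left 5, 5 and 6 CDS calls, and leaving out replicate 1, 2 or 3 without exon 5 left 4, 3 and 3. Without input replicate 1, 2 or 3 there were 14, 31 and 10, where all genes gave 1382, 2406 and 1286 calls, against 1425 with all libraries. With the replicate number as a block there were 7.

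**Figure D3:**
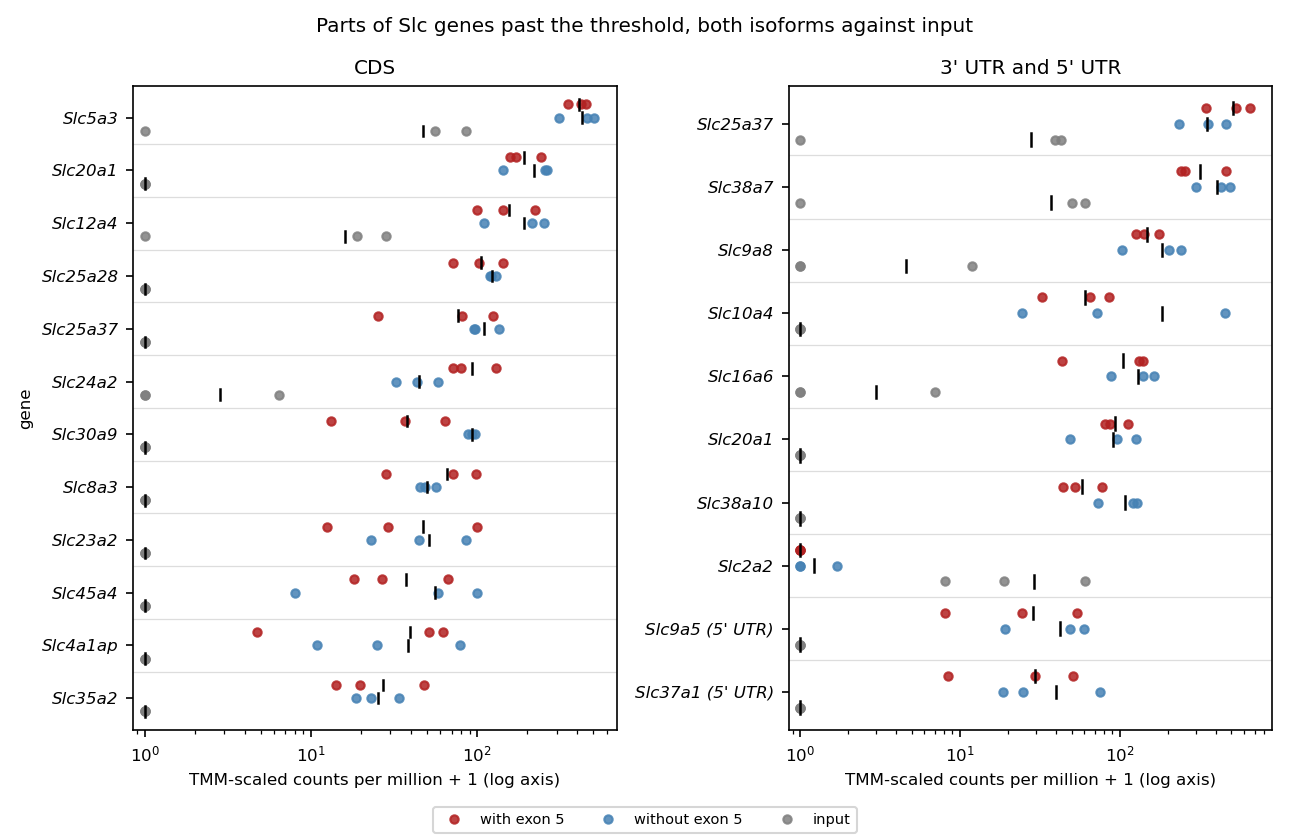
TMM-scaled CPM plus 1 (log axis) of Slc gene parts past the threshold against the inputs, 1 point per library and a black bar at the group mean, CDS on the left and the UTRs on the right. Most inputs are at 0, and Slc2a2 is the part whose inputs (7.04 to 59.9 CPM) lie above the isoform libraries.

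In the 3′ UTR, 8 of 76 Slc genes tested were higher (10.5%, against 6.23% of 5023 genes) and 1 was lower (1.32%, against 3.05%). At an unadjusted p under 0.05, 21 were higher and 5 lower, against 24.7% and 8.84% of all genes. DESeq2 called 13 higher and 6 lower (1120 genes in all), and edgeR by library size alone 5 higher and 3 lower. The median log2 fold change was 0.61, beside 0.63 for all genes and 0.93 for those with a symbol. Among genes named by the length table it was 0.56 for Slc genes, beside 0.52 for all named there. Slc25a37 and Slc20a1 passed here as in their CDS. The 3′ UTR of Slc25a37, which held 86.4% of its counts with exon 5 and 77.1% without, had 534, 648 and 348 CPM with exon 5 and 235, 357 and 461 CPM without, against 0, 38.1 and 42.3 CPM in the inputs, a log2 fold change of 3.98 (SE 1.01, edgeR adjusted p = 0.0336). That of Slc20a1 had 85.7, 111 and 80.5 CPM with exon 5 and 95.6, 48.2 and 125 CPM without, against 0 in the inputs, at least 4.92-fold higher (edgeR adjusted p = 0.0306).

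The sodium-proton exchanger Slc9a8 (NHE8, of the Golgi and endosomes) had 126, 176 and 140 CPM with exon 5 and 103, 241 and 204 CPM without, against 0, 10.9 and 0 CPM in the inputs, a ratio of 42.4 with an interval of 11.7 to 351 (edgeR adjusted p = 0.0326). The amino acid carriers called were Slc38a7 and Slc38a10. Slc38a7 had 460, 241 and 256 CPM with exon 5 and 298, 486 and 427 CPM without, against 60.1, 49.0 and 0 CPM in the inputs, a log2 fold change of 3.28 (SE 1.00, edgeR adjusted p = 0.0486). Slc38a10 was at least 4.42-fold higher (edgeR adjusted p = 0.0326). Slc16a6, of the monocarboxylate carrier family, had a ratio of 58.8 with an interval of 10.5 to 2327 over 1 input count (edgeR adjusted p = 0.0337).

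Slc10a4, a bile-acid family protein of transmitter vesicles, was uneven between libraries. Its 3′ UTR had 84.3, 64.2 and 31.8 CPM with exon 5 and 71.7, 23.5 and 456 CPM without, against 0 in the inputs, at least 6.59-fold higher (edgeR adjusted p = 0.0371). Replicate 3 without exon 5 stood far above the rest. The call was lost without it, and also without each library with exon 5 and without replicate 1 of Chtop without exon 5. The pseudogene Slc10a4-ps may share reads with this gene. The glucose transporter Slc2a2 (GLUT2; chromosome 3, 28697903 to 28728361), best known from liver and pancreatic beta cells, was the 1 lower call. Its 3′ UTR had 1 count in 1 isoform library and 3, 11 and 1 counts in the inputs, a log2 fold change of -6.54 (SE 1.62, edgeR adjusted p = 0.0326). In CPM this was 0.700 in replicate 3 without exon 5 and 0 in the other isoform libraries, against 18.0, 59.9 and 7.04 in the inputs. Slc2a2 passed the filter on low counts only through the inputs, where it was high, so its adjusted p is no independent support for the difference.

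Leaving out any 1 isoform library left 0 calls in the 3′ UTR, or 1 without replicate 2 of Chtop without exon 5. Leaving out input replicate 1, 2 or 3 gave 8, 18 and 12, where all genes gave 397, 1003 and 504 calls, against 466 with all libraries. With the replicate number as a block there were 5 in the 3′ UTR and 0 in the 5′ UTR. In the 5′ UTR, 2 of 15 Slc genes tested were higher (13.3%, against 19% of 731 genes) and none was lower by edgeR, against 1.5% of all genes. At an unadjusted p under 0.05, 5 were higher and 0 lower, against 43.8% and 3.69%, DESeq2 called 2 higher and 0 lower, and the median was 1.27, beside 3.15. These were the neuronal sodium-proton exchanger Slc9a5 and Slc37a1, at least 1.88-fold and 1.82-fold higher (edgeR adjusted p = 0.0368 and 0.0376), and both calls were lost without any 1 of the 9 libraries.

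The counts of Slc genes lay more in the 3′ UTR and less in the CDS than those of all other genes, in each of the 9 libraries. The 3′ UTR held 48.8%, 42.9% and 41.5% of Slc counts with exon 5 and 48.0%, 41.6% and 42.6% without, against 51.4%, 53.8% and 54.2% in the inputs. For all other genes it held 27.7% to 30.7% with exon 5 and 27.3% to 29.8% without, against 48.9% to 51.5% in the inputs. The CDS held 45.7%, 51.9% and 53.3% of Slc counts with exon 5 and 46.4%, 52.4% and 53.1% without, against 42.3%, 39.6% and 33.9% in the inputs, where other genes had 66.4% to 68.7%, 66.9% to 69.0% and 45.5% to 47.7%. Both sets therefore had more of their counts in the CDS in the immunoprecipitates than in the inputs, and the Slc set by less. The tested Slc genes also had longer 3′ UTRs, with a median of 1884.5 bases beside 1569.5 for all tested genes, and their median CDS was 1584 bases beside 1698.5; the part of length in the shares was not tested.

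In pooled counts the Slc excess in the 3′ UTR was 12.8 to 18.2 percentage points in the 6 immunoprecipitates, against 2.45 to 3.68 in the inputs. The difference of 12.3 points had an exact two-sided permutation p of 0.0238, which is the smallest that 6 against 3 libraries allow (0.0238 adjusted over 3 parts). For the CDS the Slc deficit was -20.7 to -15.3 points, against -11.6 to -5.38 in the inputs (difference -9.03, same exact p). In the 5′ UTR the Slc excess was smaller in the immunoprecipitates, 0.589 to 2.60 points, against 2.93 to 8.98 in the inputs (difference -3.23, same exact p). The 3 parts make up all counts of a gene, so these tests are not independent. All 3 gave the smallest possible p, so the adjustment changed nothing. For the 3′ UTR and the CDS, leaving out an input gave 0.0714, the smallest that 6 against 2 libraries allow. Single genes weighed on the pooled input shares. Slc38a5 held 90 of 764 Slc counts in input replicate 3 and 31 of 2524 in input replicate 2, all in the 5′ UTR. That part held 11.9% of Slc counts in input replicate 3, so nearly all of its counts there were of Slc38a5. The 5′ UTR difference therefore cannot be read as a trait of the Slc set. Slc16a3 held 233 of 2524 in input replicate 2. Omission of either gene was not tested. The widening in the 3′ UTR and the CDS also depended on the measure. Taking the median share per gene, over genes with at least 20 counts in a library, the Slc excess in the 3′ UTR was 4.44 to 17.6 points in the immunoprecipitates, against 5.39 to 25.7 in the inputs, a difference of -4.00 (exact permutation p = 0.452). Only 13 to 38 Slc genes reached 20 counts in an input, against 79 to 93 in an immunoprecipitate. This comparison of shares was chosen after the counts had been seen.

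**Figure D4:**
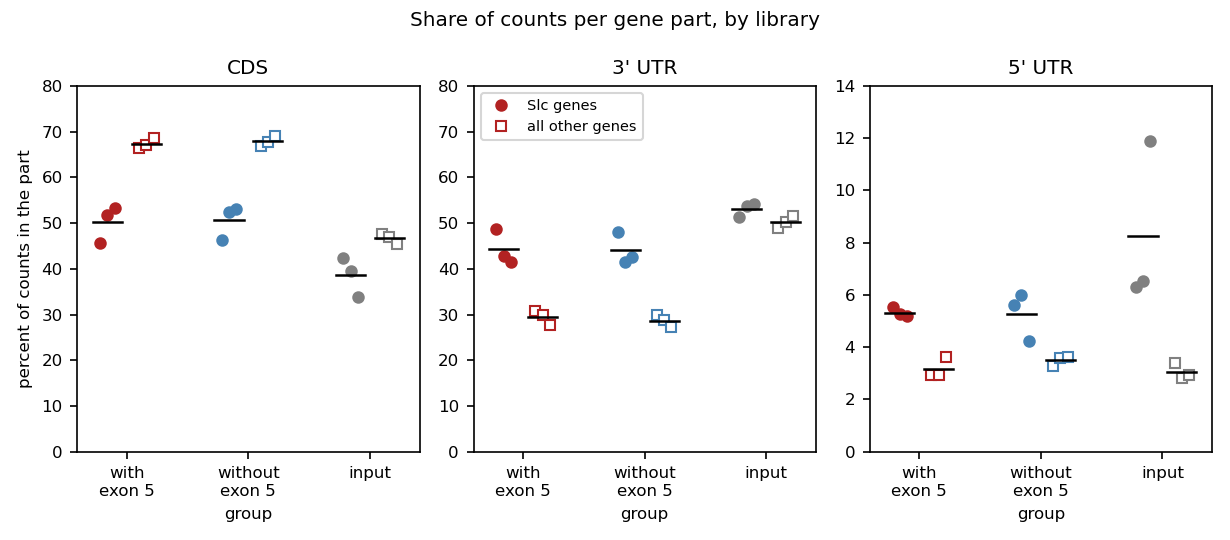
Percent of counts in the CDS, 3′ UTR and 5′ UTR per library (1 point each, black bar at the mean of 3), for Slc genes (filled circles) and all other genes (open squares), with exon 5, without exon 5 and input; the 5′ UTR panel has its own axis. In the immunoprecipitates 41.5% to 48.8% of Slc counts and 27.3% to 30.7% of other counts lie in the 3′ UTR.

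Within single genes no shift between parts passed the test. edgeR's test of part usage against the inputs called 0 of 68 Slc genes and 15 of 4163 genes (0.36%), and at an unadjusted p under 0.05 it had 13 Slc genes (19.1%, against 17.2% of all). Per base, with 20 counts per group required, the CDS was denser than the 3′ UTR in 60 of 105 Slc genes with exon 5 and 70 of 108 without, against 24 of 55 in the inputs. These are 57.1%, 64.8% and 43.6%, beside 61.6%, 63.9% and 49.7% of other genes.

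Some Slc RNAs were counted mainly in 1 input. The lactate exporter Slc16a3 (MCT4) had 301, 98.5 and 151 CPM with exon 5 and 278, 94.1 and 87.5 CPM without, against 0, 1269 and 0 CPM in the inputs. The glutamine transporter Slc38a5 (SNAT5) had 18.6, 14.3 and 6.55 CPM with exon 5 and 11.0, 28.2 and 0 CPM without, against 0, 169 and 634 CPM in the inputs, where all counts lay in the 5′ UTR. Neither passed: the log2 fold changes were -1.21 and -1.48 for Slc16a3 and -4.34 and -4.35 for Slc38a5 (edgeR adjusted p = 0.644 and 0.564, and 0.104 and 0.106).

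Between the isoforms no Slc gene passed edgeR's test, with 0 of 105 called and 0 at an unadjusted p under 0.05. The background was as low, with 0% of 8342 genes called, and 0.396% higher and 0.719% lower at an unadjusted p under 0.05. These shares fall far below the rate of 0.05 that such a threshold gives where nothing differs. The test was thus conservative, and 0 calls do not show that the isoforms are alike. Its spread was estimated over all 9 libraries, inputs among them. With only the isoform libraries fitted, 0 Slc genes and 2 of all genes were called. DESeq2 called 0 Slc genes as well. The median log2 difference, with exon 5 over without, was -0.16 for Slc genes beside -0.03 for all, and 39 of 105 were positive. All libraries with exon 5 lay above all without for 5 Slc genes (4.76%, against 6.49% of all genes), among them Slc24a2, Slc19a1, Slc36a1 and Slc25a47. The opposite held for 6 (5.71%, against 7.43%), Slc25a24, Slc37a3, Slc6a9, Slc30a9, Slc25a28 and Slc4a7. In simulated counts of this design, 55.6% of genes changed 16-fold and 4.08% of those changed 4-fold were recovered between the isoforms. The test would therefore miss most differences of moderate size. Depth, spread and number of libraries were not varied, so the part of each was not tested.

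The Slc genes of lowest unadjusted p in each direction are given as values with the SE of their log2 difference. The lysosomal amino acid exporter Slc36a1 (PAT1) had 61.4, 57.1 and 183 CPM with exon 5, against 53.3, 38.8 and 22.4 CPM without, a log2 difference of 1.40 (SE 1.12). Slc25a47, a mitochondrial carrier best known from liver, had 32.8, 49.9 and 15.9 CPM, against 9.19, 5.88 and 12.6 CPM without exon 5 (1.81, SE 1.42). Slc24a2 had 153, 117 and 144 CPM, against 93.7, 84.7 and 75.6 CPM without exon 5 (0.70, SE 0.90). In these 3 genes the groups did not overlap.

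In the other direction the glycine transporter Slc6a9 (GlyT1) had 54.3, 47.1 and 2.81 CPM with exon 5, against 138, 63.5 and 143 CPM without (-1.73, SE 1.30). The ATP-Mg/phosphate carrier Slc25a24 had 0, 21.4 and 0 CPM with exon 5, against 60.6, 27.0 and 45.5 CPM without (-2.62, SE 1.85). For its relative Slc25a23 and the monocarboxylate carrier Slc16a1 (MCT1) 1 library set the difference. Slc25a23 had 71.4, 84.2 and 85.2 CPM with exon 5, against 511, 49.4 and 84.7 CPM without, and its log2 difference of -1.42 became 0.23 without replicate 1 of Chtop without exon 5. Slc16a1 had 42.8, 42.8 and 15.9 CPM with exon 5, against 235, 32.9 and 52.5 CPM without (-1.65, SE 1.11). The test gave an adjusted p of 1.00 for all of these genes.

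**Figure D5:**
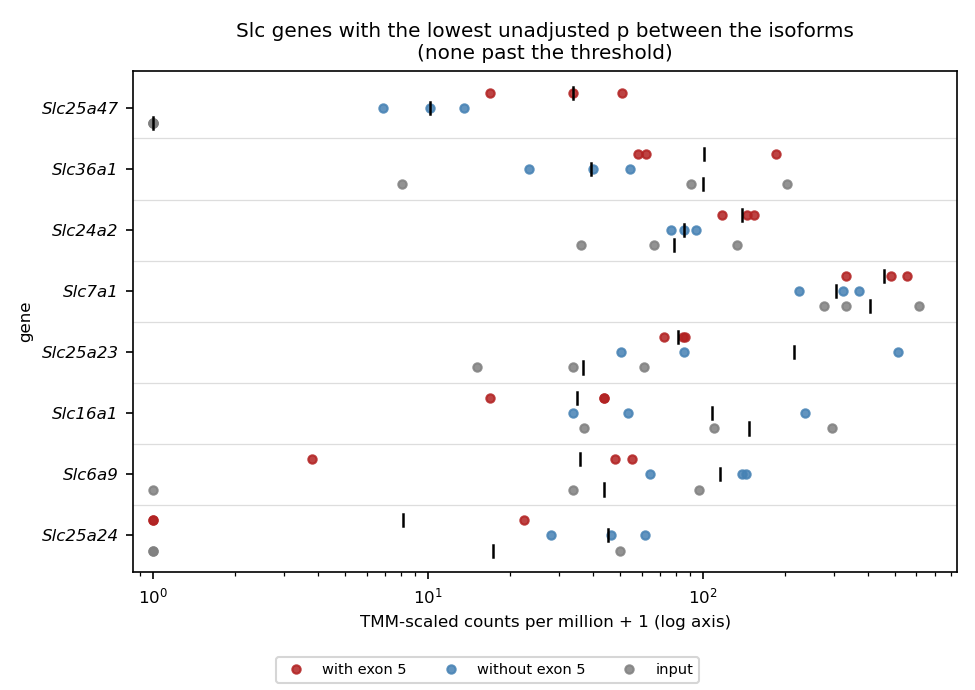
TMM-scaled CPM plus 1 (log axis) of the 8 Slc genes with the lowest unadjusted p between the isoforms, 4 in each direction, 1 point per library and a black bar at the group mean, with the inputs below. None passed the test, and in Slc25a23 and Slc16a1 a single library without exon 5 (511 and 235 CPM) stands apart.

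By gene part the comparison of the isoforms called 0 of 86 Slc genes in the CDS, 0 of 76 in the 3′ UTR and 0 of 15 in the 5′ UTR by edgeR, with 0 at an unadjusted p under 0.05 in each and none called by DESeq2. The background was 0% in all 3 parts, and at an unadjusted p under 0.05 it was 0.42% higher and 0.87% lower in the CDS, 0.697% and 1.45% in the 3′ UTR, and 0.274% and 1.5% in the 5′ UTR. Part usage called 0 of 68, with 0 at an unadjusted p under 0.05 and a background of 0% and 0.937%. In simulated counts this test recovered 2.2% of genes whose CDS counts alone were changed 16-fold between the isoforms, so it would miss most such shifts. These counts were drawn with the median spread of gene totals, not that of parts. The share of Slc counts in each part showed no difference past the threshold (exact two-sided permutation p of 0.8 to 1.0, where 3 against 3 libraries cannot go below 0.1).

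The authors' deposited table classes gene parts as favouring an isoform by a log2 fold change of 1.0 in the same direction in all replicates, without a test. There, in the authors' deposited table, 5 of 68 Slc genes favoured exon 5 in the CDS (7.35%, against 7.41% of 4532 genes) and 9 favoured its absence (13.2%, against 8.32%). The authors' deposited table gave 1 and 5 of 45 in the 3′ UTR (2.22% and 11.1%, against 9.87% and 10.1% of all genes), and 0 and 2 of 10 in the 5′ UTR (against 9.07% and 15.2%). Genes favouring exon 5 in the CDS in the authors' deposited table were Slc36a1 (log2 fold change 1.86), Slc25a47 (1.84), Slc8a2 (1.27), Slc24a2 (1.13) and the endoplasmic reticulum zinc transporter Slc39a7 (1.11). Among those favouring its absence, the authors' deposited table gave Slc25a38 -4.28, Slc25a26 -2.91, Slc7a6 -2.36, Slc30a7 -2.13, Slc30a9 -1.26 and the mitochondrial phosphate carrier Slc25a3 -1.23 in the CDS. Slc6a9, Slc37a3 and Slc25a26 were classed so in both the CDS and the 3′ UTR of the authors' deposited table, at -1.01 and -2.53, -1.30 and -2.04, and -2.91 and -1.63. None of these passed the test on the deposited counts.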

How the data were processed

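The members and gene lists were chosen with earlier results of these data known. Per the file headers, the deposited tables hold raw read counts of each gene, split into CDS, 5′ UTR and 3′ UTR and summed. Part lengths, and a table with a size-factor-normalized signal (not used here), a log2 fold change and an isoform class per gene part, were also deposited by the authors. The submitters' processing notes name mm10, TopHat2 and DESeq2 without versions. Which reads were kept, how they were counted and whether strand was used is not stated. In all, 9 columns of per-sample values were not used. Symbols matched RefSeq's GRCm38.p6 table for 200 of 201 members.

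From the counts, edgeR 4.0.16 (R 4.3.3, limma 3.58.1) fitted all 9 libraries in 1 quasi-likelihood model (robust, TMM factors, filterByExpr set to counts of 10 and totals of 15) without covariates. Adjusted p is Benjamini-Hochberg over all genes tested, with a threshold of 0.05. SE is that of the log2 fold change. Gene parts used the sizes of the gene totals; part usage used diffSpliceDGE. P-values measure the spread between these libraries. A gene at 0 in all inputs got a bound against 3 counts in each input library; with 1 to 3 input counts a ratio with an exact 95% interval is given. A gene or part at 0 in all inputs could pass the filter on low counts only through the immunoprecipitates. Permutation tests used SciPy 1.17.1. The data did not show that replicate numbers pair the libraries, and the labels do not say it. Named genes were those past the threshold, the 12 highest in the immunoprecipitates, the highest in the inputs and in each class, and the 4 of lowest p in each direction between isoforms; Slc17a6, Slc17a7, Slc32a1, Slc46a1, Slc5a12 and Slc30a8 and the genes whose isoform groups did not overlap were chosen after their values were seen. Counts of calls include 2 genes whose own values are not reported here. Alternatives were library size alone, RLE factors, DESeq2 1.42.0, other filters, only the groups compared, a replicate block, own totals per part and omission of each library. On simulated data with exon 5 against input, 44.4% of 16-fold and 8.25% of 4-fold changes were recovered among 7836 genes.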

Additional observations from a re-analysis of the deposited data

How the results depend on the processing

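Calls against the inputs moved with most settings, while the named genes kept their direction except where given; causes were not tested unless a setting has fewer libraries or genes by construction. For totals with exon 5, the 3 calls became 2 by library size alone (1 higher and 1 lower), 13 with DESeq2, 10 with no filter on low counts (2 lower), 1 with genes named by the length table only, 0 with only the groups compared, and 0 to 30 with 1 library left out. For totals without exon 5, the 3 became 0 by library size alone, 1 with RLE factors, 14 with DESeq2, 13 with no filter (2 lower), 5 with a minimum count of 20 and total of 30, 0 with only the groups compared, and 0 to 35 with 1 library left out. The 13 CDS calls became 6 by library size alone and 8 with RLE, and 3 to 31 with 1 library left out. The 9 calls in the 3′ UTR became 19 with DESeq2 (6 lower) and 14 with each part's own totals, and 0 to 18 with 1 library left out. The 2 calls in the 5′ UTR became 0 by library size alone and with RLE, 1 with the stricter filter, and 0 to 2 with 1 library left out, none of them shared with those 2; with no filter 1 other gene was called, and it was lower. Part usage gave 1 with no filter and 0 to 1 with 1 library left out. Between the isoforms every setting gave 0.

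Same-numbered isoform libraries deviated from their group means with correlations of -0.0061, 0.0284 and 0.0365, all under 0.1; the labels say that replicates were processed on separate days but not that a number marks a day across groups, so a shared day was not settled. With the replicate block, calls were 1 with exon 5, 2 without, 7 in the CDS, 5 in the 3′ UTR, 0 in the 5′ UTR and 0 for part usage. With the block by the number in the column names, which differs for 2 inputs, they were 1, 1, 6, 4 and 0. That block, the length-table genes and the share settings were chosen after seeing the data.

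Reversals were few. By library size alone Slc5a3 had log2 fold changes of -0.22 with exon 5 and -0.032 without. Slc25a23 was 0.23 between the isoforms without replicate 1 of Chtop without exon 5, and -1.89 to 0.23 over all omissions of a library. The excess of Slc counts in the immunoprecipitates against the inputs was -4.00 points in the 3′ UTR and 6.13 in the CDS by median share per gene. In pooled counts it was 11.3 and -8.33 without Slc18a2, 12.9 and -10.2 against genes with a symbol, and 11.7 to 12.7 and -10.8 to -7.66 with 1 library left out. The median log2 fold change of all genes was 1.03 in both comparisons, 0.39 and 0.37 by library size alone and 0.63 and 0.59 with RLE, and that of Slc genes 0.83 and 0.99, 0.10 and 0.45, and 0.37 and 0.61. Without input replicate 2 the medians were 2.68 and 2.69 for all genes and 2.95 and 3.68 for Slc genes. The inputs limit the depth: a gene needs over 16.3 CPM to reach 3 counts in any of them.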

Other observations

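Other transport genes showed single calls over input. Of 17 tested ABC transporters, 2 were higher in each comparison, near the 8.31% and 8.12% of all genes. Abcc5, an exporter of organic anions, rose by 3.58 (log2) with exon 5 and 3.46 without (edgeR adjusted p = 0.0397 and 0.0449), and Abcc10 was at least 5.74-fold and 3.87-fold higher. Of 17 P-type ATPases, the lipid flippase subunit Atp8b2 was at least 6.54-fold higher with exon 5 and 7.89-fold without, and 1 and 2 of the 17 were called. The plasma membrane calcium pump Atp2b1 had log2 fold changes of 2.07 with exon 5 (edgeR adjusted p = 0.0541) and 2.53 without (edgeR adjusted p = 0.0322). None of 13 tested subunits of the V-type ATPase was called in either comparison. Of 6 aquaporins with a symbol, 1 was counted and none tested.

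Genes of the mTORC1 kinase complex and its amino acid sensors read nutrients that carriers bring in. Of 22 tested, 5 were higher in each comparison, where 8.31% and 8.12% of all genes were. Among genes with a symbol 10.1% and 9.9% were higher. The scaffold Rptor had log2 fold changes of 3.99 with exon 5 and 4.25 without (edgeR adjusted p = 0.0220 and 0.0179). The kinase Mtor had 3.69 and 3.36 (edgeR adjusted p = 0.0347 and 0.0468). Wdr24, Sesn1 and Fnip2 had no input count and were at least 3.04-fold, 4.28-fold and 7.36-fold higher with exon 5 (edgeR adjusted p = 0.0417, 0.0402 and 0.0146). Several of these calls lay near the threshold, and omission of a library was not run for them. The list was chosen with earlier results of these data known. The median of the 22 was 1.70 with exon 5 and 1.95 without, beside 1.03 and 1.03 for all genes. For genes with a symbol it was 1.28 and 1.28. From a list of regulators of carriers 7 genes were tested. Of these Wnk1, a kinase upstream of the cation-chloride cotransporters, rose by 1.98 with exon 5 and 2.02 without (edgeR adjusted p = 0.0161 and 0.0158). The difference between these lists and the Slc genes was not tested. None of 9 tested neuroblastoma and neuron markers was called against the inputs by edgeR. Their median log2 fold changes were -0.76 with exon 5 and -0.95 without.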
